A study of Mus musculus with 2 samples.

Results

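Mir129-1 and Mir129-2 are the 2 genes that encode the brain microRNA miR-129 in the mouse. They were picked by symbol, not by level, after the gene identifiers of the count files had been paired with GENCODE M21. They make up 2 of the 2202 annotated microRNA genes in the files. The libraries are microRNA-seq, a sequencing of RNA molecules shorter than 30 bases, from tissue labelled as a layer of hippocampus. Both come from male B6CASTF1/J mice aged 36 days, a cross of C57BL/6J with CAST/EiJ. Outside the sex chromosomes, every cell therefore carries an allele of each strain. There is 1 group with 2 biological replicates, no treatment and no second condition. The replicates are separate tissue samples, but the labels give them the same donor, so the spread between them may be technical in part. The data hold no measure of neuronal excitability, and the bulk tissue does not show which cells the reads came from.

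A microRNA gene is transcribed into a longer RNA that folds back on itself as a hairpin. Drosha and Dicer cut the hairpin into a short duplex, and either arm, called 5p or 3p, can be loaded into an Argonaute protein, where bases 2 to 8 (the seed) pair with target messages. miR-129-5p is known to repress the potassium channel Kcna1 (Kv1.1) in rodent neurons. In rat hippocampal neurons it is also known to take part in the weakening of synapses after prolonged activity.

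The sequences show which reads can be told apart between the loci, so they come first. RefSeq (GRCm38.p6) lists the arms below, written 5′ to 3′ with the seed in capitals.
miR-129-5p, of both genes: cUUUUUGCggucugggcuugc
miR-129-2-3p, of Mir129-2: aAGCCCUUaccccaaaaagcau
Among 1679 mature mouse microRNAs in that table, no other one has the seed of miR-129-5p or that of miR-129-2-3p. The table lists no 3p arm for Mir129-1, although the seed of miR-129-2-3p also occurs in the Mir129-1 hairpin. That seed is therefore not particular to Mir129-2.

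The hairpins are given next, with capitals for every stretch of 18 or more bases that occurs in both.
Mir129-2 hairpin: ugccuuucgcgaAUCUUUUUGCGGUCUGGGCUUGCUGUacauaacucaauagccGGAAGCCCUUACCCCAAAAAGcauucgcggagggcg
Mir129-1 hairpin: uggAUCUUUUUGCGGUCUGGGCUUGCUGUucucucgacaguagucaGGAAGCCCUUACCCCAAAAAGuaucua
The first shared stretch is 26 bases long and holds the whole 5p arm. The second is 21 bases long and ends before the last bases of the 3p arm. Over its 22 bases, miR-129-2-3p differs from the closest window of the Mir129-1 hairpin by 1 base, C20U, with positions counted from 1 at the 5′ end of the arm. None of the 4 windows of 18 bases in the 5p arm is particular to a gene, while 3 of the 5 such windows in miR-129-2-3p, and all 3 of its windows of 20 bases, occur in no other annotated microRNA gene. Reads that match several places enter no gene's count, so a read that lies within the 5p arm cannot have been counted for either gene. The counts below are therefore counts of reads that separate the loci, and the level of miR-129-5p, the arm with the described targets, was not measured by them. Reads that matched several places, from any source, were 46.5% of replicate 2 and 40.3% of replicate 1. No hairpin outside the miR-129 genes shares 18 bases with either member. Sites outside annotated microRNA genes were not compared, since no genome sequence was used here.

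**Figure D1:**
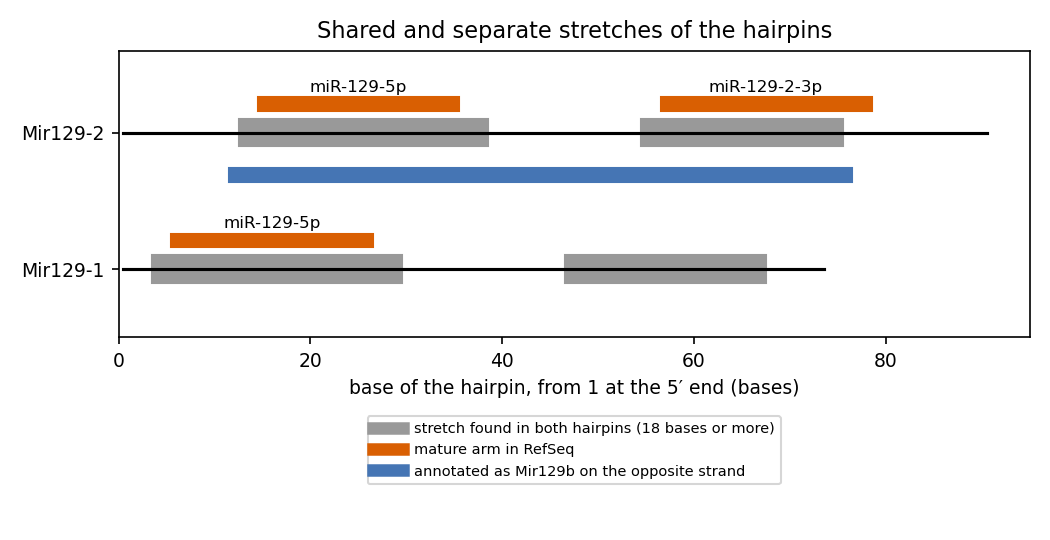
Map of the Mir129-2 and Mir129-1 hairpins, by base from the 5′ end. Grey blocks mark stretches found in both hairpins, orange bars the mature arms in RefSeq and the blue bar the part that is annotated on the opposite strand as Mir129b; the 5p arm lies wholly inside a shared stretch of 26 bases, while miR-129-2-3p reaches past the shared stretch of 21 bases.

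The genes lie on different chromosomes and in different kinds of host. Mir129-2 (ENSMUSG00000065511.1) is on the minus strand of chromosome 2 at 94241364 to 94241453 (mm10). It lies in an intron of the long non-coding RNA gene Mir670hg, in each of the 3 annotated transcripts that span it. Mir129-1 (ENSMUSG00000065469.1) is on the plus strand of chromosome 6 at 29022619 to 29022691. It lies in exon 2, the last exon, of the long non-coding RNA gene Gm3294. Its nearest protein-coding gene is Lep, the leptin gene, 37529 bases away, and that of Mir129-2 is Ttc17, 59314 bases away.

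Both genes were detected in both libraries, and Mir129-2 was the more abundant in counts. Mir129-2 had 11656 counts in replicate 2 and 2849 in replicate 1. Mir129-1 had 1978 counts in replicate 2 and 576 in replicate 1. All genes together had 5279877 own-strand counts in replicate 2 and 4404040 in replicate 1. As CPM (counts scaled to a library of 1000000), Mir129-2 stood at 2208 in replicate 2 (95% exact Poisson interval 2168 to 2248) and at 647 in replicate 1 (623 to 671). Mir129-1 stood at 375 CPM in replicate 2 (358 to 392) and at 131 CPM in replicate 1 (120 to 142). The lower library of Mir129-2 lay above the higher library of Mir129-1, so their ranges did not overlap. All intervals cover counting error alone and assume independent reads. Amplified reads that carry no molecular identifier are not independent, so the intervals may be too narrow.

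**Figure D2:**
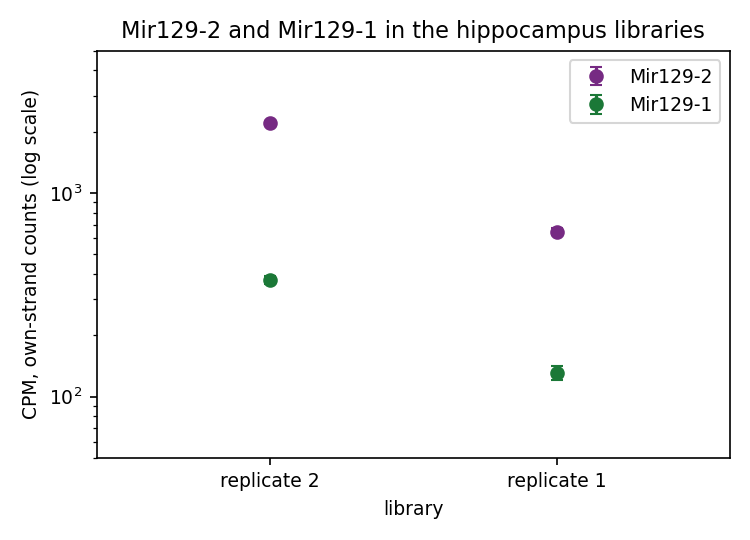
Levels of Mir129-2 and Mir129-1 in CPM on a log axis, with replicate 2 on the left and replicate 1 on the right. Points are single libraries and bars are 95% exact Poisson intervals; Mir129-2 lies above Mir129-1 in both libraries, and both genes are higher in replicate 2.

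Over the libraries, Mir129-2 averaged 1427 ± 1104 CPM and Mir129-1 averaged 253 ± 172 CPM (SD, n = 2). By mean CPM they ranked 85 and 156 among all genes. Mir129-2 ranked 62 in replicate 2 and 111 in replicate 1, and Mir129-1 ranked 140 and 180. The SD of each gene is large against its mean, so the neighbours in this order do not differ from it beyond their spread: Mir128-2 at 1471 ± 598 CPM and Mir872 at 1365 ± 319 CPM beside Mir129-2, and Mir375 at 255 ± 22.7 CPM and Mir329 at 253 ± 11.3 CPM beside Mir129-1 (SD, n = 2). Together the genes took 0.258% of the counts in replicate 2 and 0.0778% in replicate 1.

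Mir129-2 had several times the counts of Mir129-1 in both libraries, a comparison that needs no scaling. The ratio was 5.89 in replicate 2 (95% exact binomial interval 5.62 to 6.18) and 4.95 in replicate 1 (4.52 to 5.42). As a share of the counts of both genes, Mir129-2 held 85.5% in replicate 2 (84.9 to 86.1) and 83.2% in replicate 1 (81.9 to 84.4). The shares were close, but they differed by 2.31 percentage points (two-sided Fisher's exact test, p = 0.000811). That is more than counting error if the reads are taken as independent. Fisher's test compares these libraries only. An exact sign-flip test over 2 libraries cannot go below a two-sided p of 0.5, and the labels give both libraries the same donor. The higher level of Mir129-2 was therefore not tested across animals. How evenly the sequences of the loci were captured was not measured, and the ratio of counts need not be the ratio of the RNA.

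The reads counted at the locus of Mir129-2 came almost alone from the minus strand. Reads of either strand that lie wholly within a shared stretch match both loci and were not counted. Mir129b (ENSMUSG00000106336.1) is annotated on the plus strand at 94241378 to 94241442 and overlaps Mir129-2 over 65 bases. Its hairpin is shown with its arms in capitals. It is the reverse complement of bases 12 to 76 of the Mir129-2 hairpin, that is, the opposite strand read 5′ to 3′.
Mir129b hairpin: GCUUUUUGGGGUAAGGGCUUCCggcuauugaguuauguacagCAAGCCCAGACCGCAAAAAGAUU
Reads on its strand numbered 1 in replicate 2 and 4 in replicate 1, while Mir129-2 had 11656 and 2849 on the minus strand. Counts at or near 3, the limit that a count of 0 allows, do not separate a low level from none. No read was counted on the strand opposite to Mir129-1 in either library. In the either-strand column of the files, reads in such an overlap are set aside, and Mir129-2 then keeps 8 counts in replicate 2 and 7 in replicate 1, which puts it below Mir129-1. That fall follows from the overlap and says nothing of its level.

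Mir129-2 was far above the nearest annotated gene on each side, both of them microRNA genes within Mir670hg. Mir670 had 46 counts in replicate 2 and 62 in replicate 1, which is 8.71 and 14.1 CPM. Gm23630 had 0 counts in both libraries, which allows up to 0.568 CPM in replicate 2 and 0.681 CPM in replicate 1. Mir670 was also ordered the other way between the libraries, with a log2 ratio of replicate 2 over replicate 1 of -0.65, against 1.75 for Mir129-2. The difference between those ratios was not tested.

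Set beside other microRNAs with numbered copies, Mir129 stood mid-list in how uneven its copies were. Of 43 pairs of genes whose symbols differ only in a final -1 and -2, 20 had more than 3 counts of each copy in each library. Among these 20, copy -2 was the higher in both libraries in 12 pairs, copy -1 in 7, and 1 changed side, namely Mir26a. By the mean log2 ratio of the libraries, 9 of the other pairs were more uneven than Mir129. Next above it in the -2 over -1 ratio stood Mir135a, with 3.73 in replicate 2 and 9.39 in replicate 1. Next below stood Mirlet7c, with 3.59 and 3.27. The Mir129 ratio differed 1.19-fold between the libraries, and 12 of the other 19 pairs differed by more. Many of these copies share sequence, as the miR-129 genes do, so these too are ratios of reads that separate the loci.

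**Figure D3:**
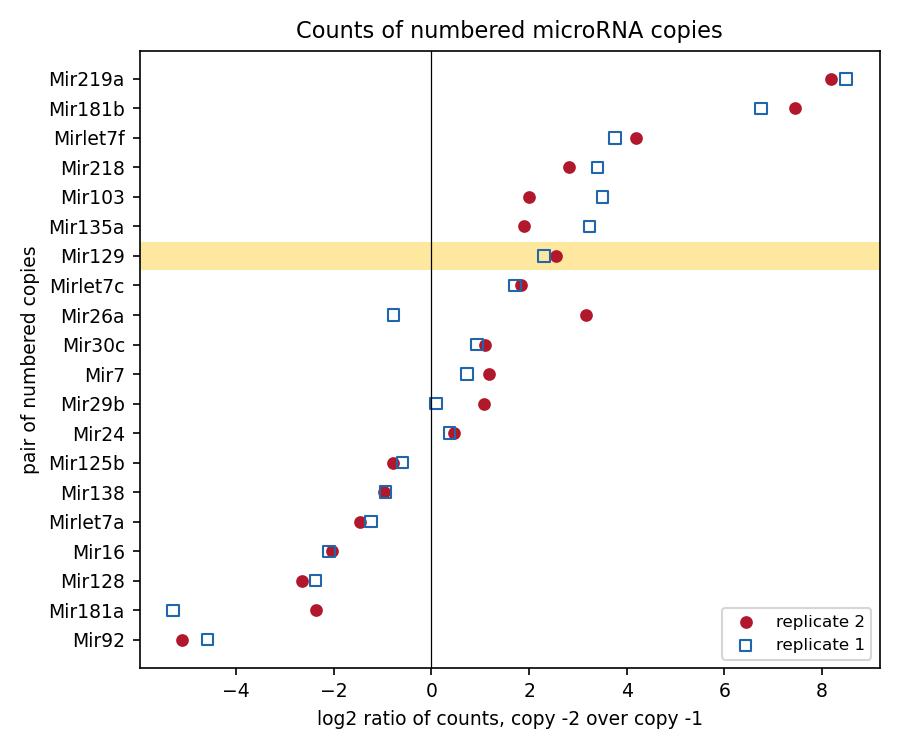
Log2 ratio of counts of copy -2 over copy -1 for 20 pairs of numbered microRNA copies, sorted by the mean of the libraries, with filled circles for replicate 2 and open squares for replicate 1. The Mir129 pair, on the shaded row, lies right of 0 in both libraries at ratios of 5.89 and 4.95.

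Both genes were higher in replicate 2 than in replicate 1. After TMM scaling and with 1 CPM added, the log2 ratio of replicate 2 over replicate 1 was 1.75 for Mir129-2 (95% exact binomial interval 1.69 to 1.81, with nothing added) and 1.49 for Mir129-1 (1.37 to 1.64). By the exact conditional binomial test, Benjamini-Hochberg adjusted over 504 genes, the adjusted p was 2.72e-124 for Mir129-1 and below 1e-300 for Mir129-2. A call in this test is common here: 55.8% of the tested genes passed in either direction, 32.5% as higher in replicate 2 and 11.5% as higher by 2-fold or more. Both members were called higher by over 2-fold, and 2 genes are too few to set against these shares. Of the 504 genes, 22 had a larger log2 ratio than Mir129-2 and 34 a larger one than Mir129-1, while the median of all was 0.05. The test covers counting error only. With the coefficient of variation of 0.426 that edgeR estimated between the libraries built into it, both adjusted p were 1. At 0.3 they were 0.152 for Mir129-2 and 0.267 for Mir129-1, so neither gene was called at either setting. The value of 0.426 came from these same 2 libraries and holds the differences under test. It therefore cannot decide whether they exceed the usual spread between replicates.

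**Figure D4:**
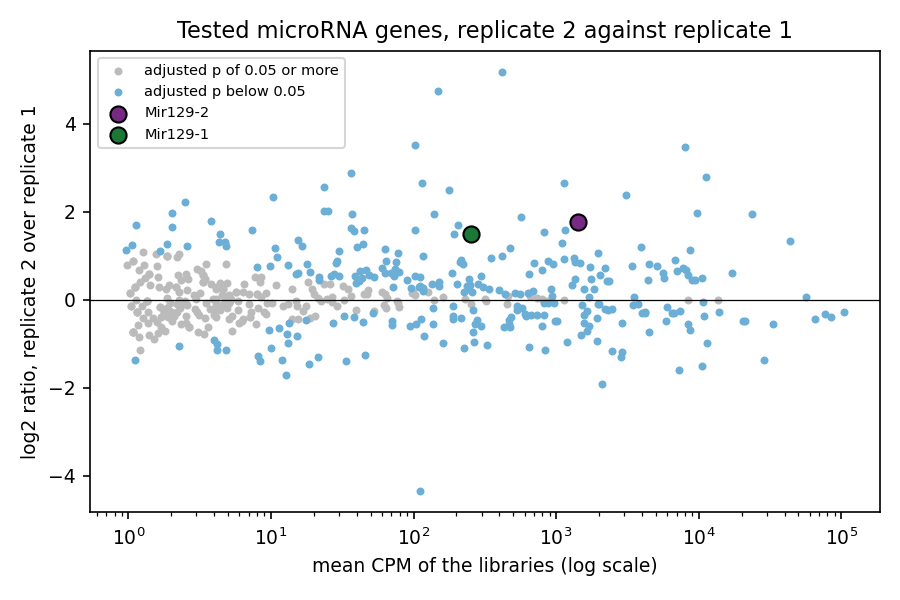
Log2 ratio of replicate 2 over replicate 1 against mean CPM on a log axis for the 504 tested microRNA genes. Blue points passed the exact binomial test at an adjusted p below 0.05 and grey points did not; Mir129-2 and Mir129-1 lie at 1.75 and 1.49, above the median of 0.05.

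Many markers of cell types were also higher in replicate 2, and their part in the difference of the miR-129 genes was not tested. Calls were common among all 504 tested genes, with 32.5% higher and 23.2% lower in replicate 2. With a minimum of 100 counts, 80.5% of 313 genes were called in either direction. A call of a marker therefore says little by itself of its cell type. The 3 vessel wall markers summed to 43835 CPM in replicate 2 and 16250 CPM in replicate 1, with 2 called higher and 1 lower. Of these, the endothelial Mir126a had 37937 CPM in replicate 2 and 9729 CPM in replicate 1, while Mir143 of smooth muscle was lower, with 5658 and 6311 CPM. The 2 red blood cell markers summed to 95.6 and 43.8 CPM, the 4 choroid plexus and ciliated epithelium markers to 1365 and 761 CPM, and the 4 microglia and leukocyte markers to 4443 and 2601 CPM. All members of the first and second of these lists were called higher, and 3 of the microglia and leukocyte list, where Mir155 was lower (log2 ratio -0.37). None of these 13 markers was at 0 in a library. The 9 neuronal markers summed to 48456 CPM in replicate 2 and 41741 CPM in replicate 1. Of these 9, 5 were called higher, with log2 ratios between 0.42 for Mir138-2 and 1.12 for Mir128-1, and 1 was lower, the abundant Mir132, with 17251 and 23835 CPM. The neuronal Mir124a-1, Mir124a-2 and Mir124a-3, which share their mature sequence, had at most 11 counts in a library, and Mir124a-3 was at 0 in both. Reads that match several genes were not counted, so neither these counts nor the neuronal sum measure the level of their mature microRNA. The 2 oligodendrocyte markers summed to 5649 and 5809 CPM. The 5 markers of neighbouring brain and sensory regions summed to 2440 and 3421 CPM, nearly all of it from Mir7b, which was lower in replicate 2, while Mir182 and Mir183 were higher and Mir96 was at 0 there. In bulk tissue, fewer cells of a type and less RNA per cell cannot be told apart.

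By counts, the miR-129 genes stood in the middle of 22 microRNA genes that have been linked to excitability, synaptic scaling or seizures. Their counts leave out miR-129-5p. Listed genes with numbered copies may have lost shared reads too, which was not measured. The order of counts need not be the order of microRNA levels. Mir129-2 had a lower mean CPM than 10 of the 22 listed genes, and Mir129-1 a lower mean CPM than 14. At the top stood Mir132, whose transcription follows neuronal activity, at 20543 ± 4655 CPM, and Mir22 at 9721 ± 8170 CPM (SD, n = 2). The microRNA miR-128 is known to limit neuronal excitability in mice. Of its genes, Mir128-1 averaged 8694 ± 4603 CPM and Mir128-2 averaged 1471 ± 598 CPM. Mir324, which targets the potassium channel Kv4.2, averaged 7448 ± 866 CPM. Mir146, a regulator of inflammatory signalling, lay between the miR-129 genes by mean CPM at 683 ± 69.5 CPM. So did the mean of Mir134, a dendritic microRNA known to limit spine size, though its 342 CPM in replicate 2 lay below Mir129-1 there, and it had 524 CPM in replicate 1.

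Between the libraries, the listed genes went both ways, with more of them higher than lower in replicate 2. In the test over all 504 genes, 13 of the 22 were higher in replicate 2, 4 were lower and 5 did not pass, against 32.5% and 23.2% of all tested genes. With DESeq2 size factors 12 were higher and 5 lower, and with a minimum of 100 counts 11 of 20 were higher and 6 lower, where 122 and 130 of all 313 tested genes were. Their median log2 ratio was 0.33, beside 0.05 over all tested genes. Mir22, at 1.96, was the only listed gene with a ratio above those of both miR-129 genes. Mir132 (-0.48), Mir324 (-0.26) and Mir134 (-0.63) were among the 4 that were lower. The list was put together with earlier results of these data known, and these counts describe it without testing it.

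**Figure D5:**
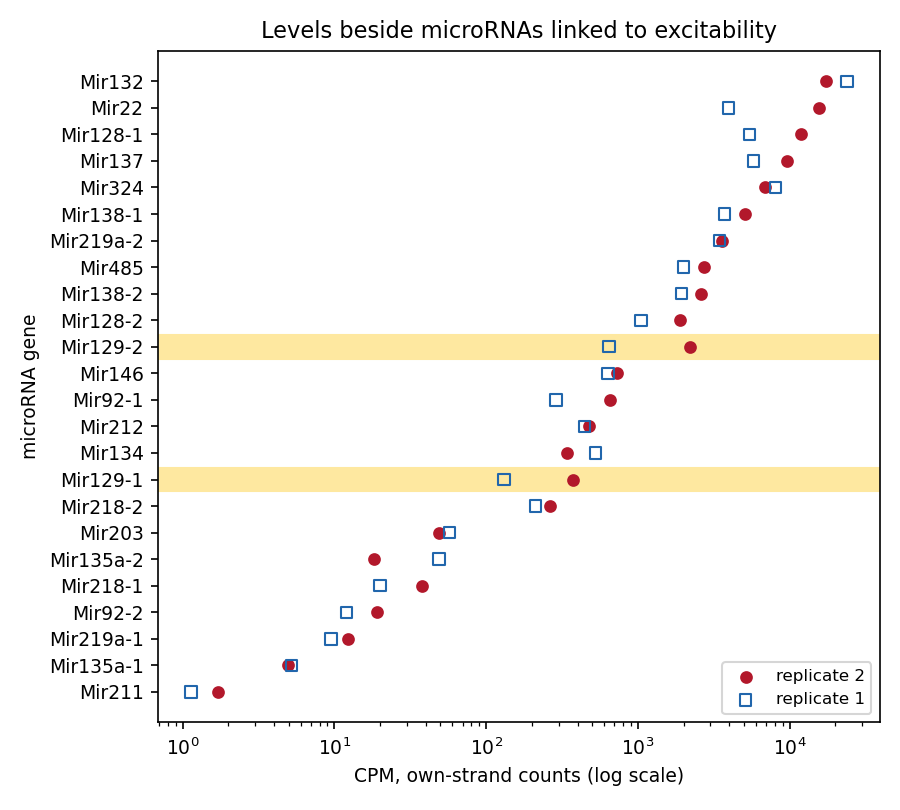
CPM on a log axis of the 22 listed microRNA genes and of Mir129-2 and Mir129-1 (shaded rows), sorted by mean, with filled circles for replicate 2 and open squares for replicate 1. Mir129-2 falls below 10 and Mir129-1 below 14 of the listed genes, and the gap between the circle and the square is wider for both than for most listed genes.

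The genes most like each member in level were found by the distance between log2(CPM + 1) values over the 2 libraries. For Mir129-2 the nearest was Mir346, in the glutamate receptor gene Grid1, at a distance of 0.39. It had 1733 CPM in replicate 2 and 569 CPM in replicate 1. Next came Mir667 at 0.49 and Mir376a at 0.59, both on chromosome 12. For Mir129-1 the nearest were Mir186, in Zranb2, at 0.45, Mir702, in Plod3, at 0.49 and Mir299a at 0.50. All 6 were higher in replicate 2, with log2 ratios between 0.80 for Mir299a and 1.59 for Mir346, each below that of the member it resembles. The distance uses the levels in both libraries, so genes this near to a member must share its direction. That direction is therefore not a separate result. Over 2 libraries, likeness in level is a description only.

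The data hold no target messages, but the seed match of miR-129-5p can be read in the annotated targets. The letters GCAAAAA, which pair with bases 2 to 8, were searched on the sense strand of the longest annotated 3′ untranslated region of 3 described targets (GENCODE M21). They are shown in capitals with their flanks.
Kcna1, a voltage-gated potassium channel: ccaaacacaaaGCAAAAAataaaaacaaaa
Atp2b4, a plasma membrane calcium pump: agaaatattatGCAAAAAaatatagttttc
Dcx, a microtubule-binding protein of young neurons: tagaaatagggGCAAAAAaaaaaaagggaa
Kcna1 (minus strand of chromosome 6) holds 1 match in 1471 bases, at base 195, while 11.1% of 1375 such regions within 10% of that length hold one. Atp2b4 holds 1 match in 7234 bases and Dcx holds 2 in 7709, of which the first is shown, where 50.8% and 55.8% of regions of like length hold one. A match of these letters is a description and not evidence of binding.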

How the data were processed

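The authors deposited raw counts per microRNA gene for each library, mapped to mm10 and counted against GENCODE M21, per the README the authors deposited. Which aligner was used is not given in the sources used here. No header names the columns. Their values show that they hold reads on either strand, on the gene's strand and on the opposite strand. Counts on the gene's strand were used. Lines without a gene took 65.4% of replicate 2 and 64.7% of replicate 1 and entered no library size or test. CPM used the total of own-strand counts.

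Libraries were compared where a gene had at least 10 counts over both, by a two-sided exact conditional binomial test (scipy 1.17.1), Benjamini-Hochberg adjusted at 0.05. Library sizes were multiplied by TMM factors of 1.01 for replicate 2 and 0.994 for replicate 1, from edgeR 4.0.16 in R 4.3.3. Its quasi-likelihood test was not used, for want of a second group. Added spread used a beta-binomial form. DESeq2 1.42.0 gave alternative size factors; other scalings, count minimums, another pseudocount, either-strand counts and each library alone were also tried. The tests were tested on simulated data. Genes named are the members, overlapping and neighbouring genes, the 3 nearest in level, a list of 22 and adjacent pairs. Members and lists were chosen with earlier results of these data known. Mir92a-1 and Mir92a-2 of the list were matched as Mir92-1 and Mir92-2. Sequences are from RefSeq and GENCODE. The alleles of CAST/EiJ may differ from them, which was not tested.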

Additional observations from a re-analysis of the deposited data

Results flagged for a closer look

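Reads on the strand opposite to Mir129-2 were seen in replicate 1, where the comparisons do not use that column. There were 4 of them, against 1 in replicate 2. A count of 4 is near the 3 that a count of 0 allows, so it does not separate a low level from none. They fall on the annotated gene Mir129b, whose own-strand counts, given above, are the same numbers.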

How the results depend on the processing

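Counts from the either-strand column, where reads in the overlap with Mir129b are dropped, gave a mean of 1.69 CPM for Mir129-2 and 279 CPM for the sum of both genes. They turned the ratio of Mir129-2 over Mir129-1 to 0.00810, the difference in share to -0.798 percentage points (Fisher's exact test, p = 0.0553) and the log2 ratio of Mir129-2 between the libraries to -0.019. These shifts come from how that column is built. With a coefficient of variation of 0.3, or the value edgeR estimated, built into the test, the log2 ratios of 1.75 for Mir129-2 and 1.49 for Mir129-1 were no longer past the threshold, and the genes called numbered 14 and 3 in place of 281. At 0.1 both were called, with 149 genes in all. Under total counts, DESeq2 size factors, upper quartile, all reads, a minimum of 1 or 100 counts and a pseudocount of 0.5 CPM, both stayed called, with log2 ratios of 1.62 to 1.77 for Mir129-2 and 1.36 to 1.51 for Mir129-1. With the minimum of 100 counts, 122 genes were called higher and 130 lower in replicate 2, beside 164 and 117 at the minimum of 10. Each library alone gave 647 to 2208 CPM for Mir129-2, 131 to 375 CPM for Mir129-1 and a locus ratio of 4.95 to 5.89. No paired analysis was possible because there is 1 group. For the members, the SD between the libraries is wider than the counting interval of either library; Mir129b and Gm23630 are at or near the limit that depth sets.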
